A study of Mus musculus with 20 samples.

Results

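The chromatin around 10 genes of glucose production and insulin action was followed across 4 genotypes of fasted mouse liver. Pck1, G6pc (listed as G6pc1 in newer annotation), Fbp1 and Slc37a4 make glucose or help to release it, Igfbp1 and Igf1 encode secreted proteins of the insulin-like growth factor system, and Insr, Irs1, Irs2 and Foxo1 carry the insulin signal into the cell. RefSeq's table for GRCm38.p6, which is the mm10 assembly, lists 21900 protein-coding genes, of which these are 10. Every interval of the authors' consensus lists whose middle lay in one of these gene bodies or within 10 kb of it was taken. That gave 122 of 65776 H3K27ac intervals, 197 of 103014 H3K4me1 intervals and 71 of 46568 H3K9ac intervals. The rule used gene names and positions and no measured value.

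Livers came from male C57BL/6 mice, 9 weeks old, kept on chow and fasted for 24 hours. Wild-type livers (WT) were set beside livers that lack Cpt2 (Cpt2 KO, deleted in the liver), livers that lack Ppara (Ppara KO) and livers that lack both (DKO). All livers, WT included, were fasted, so no fed state is part of the comparison, and the Cre driver behind the liver deletion of Cpt2 is not given in the sources used here. Chromatin immunoprecipitation and sequencing (ChIP-seq) was done for H3K27ac and H3K4me1 on 2 livers of each genotype, and for H3K9ac on 1 WT and 1 Cpt2 KO liver. Cpt2 encodes a carnitine palmitoyltransferase of the inner mitochondrial membrane that long-chain fatty acids need for oxidation, and Ppara encodes a nuclear receptor activated by fatty acids. Values are given below as replicate 1 and replicate 2 of each genotype. The labels do not say that the replicates are separate animals. Numbers in the peak names differ between them, and are the same in H3K27ac and H3K4me1 for a given genotype and replicate. The 2 marks are therefore not treated as independent material. The p-values measure the spread between these libraries.

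During fasting the liver releases glucose made from lactate, glycerol and amino acids. Glucagon, acting through cyclic AMP, and glucocorticoids raise transcription of the gluconeogenic genes, while insulin, acting through its receptor, the docking proteins Irs1 and Irs2 and the kinase Akt, keeps the forkhead factor Foxo1 out of the nucleus and so lowers transcription of G6pc, Pck1, Igfbp1 and Irs2. H3K27ac marks active promoters and enhancers, H3K4me1 marks enhancers whether active or not, and H3K9ac marks active promoters and nearby chromatin.

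The value of an interval in a library is the highest fold enrichment of any peak called there, which is the authors' ratio of ChIP over input background at the peak's summit. A library with no overlapping peak has no call, which is not a value of 0. Peak lists held from 44454 to 48929 H3K27ac peaks and from 61189 to 72151 H3K4me1 peaks. Read totals are unknown, and the background height read from the deposited folds and p-values was 11.9 tags per kb in the 8 H3K27ac libraries and 13.4 in the 8 H3K4me1 libraries. The targeted genes were looked at first, and the intervals given here were picked for their pattern. An H3K27ac interval beyond the lower end of the Cpt2 body had folds of 7.77 and 9.88 in WT livers and of 4.78 and 5.52 in Ppara KO livers, with no call in the 4 Cpt2-null livers, and one beyond the upper end of Ppara was called in the 4 Ppara-intact livers only, with folds from 5.21 to 6.57. Inside Ppara another (chr15:85801195-85801691) was called in the 4 Ppara-null livers only, from 6.08 to 9.91. The 6 hepatocyte markers examined (among them Alb, Ttr and Cps1) had an H3K27ac call in all 8 libraries, while Krt19, Epcam and Krt7, which define bile duct cells, and Myod1, Acta1 and Cpa1, which mark muscle and pancreas, were called in none. The fourth marker of each of these lists did have calls: Sox9, of bile duct cells, at 12.5 and 19.7 in WT, 5.81 and 7.25 in Ppara KO, 6.69 and 9.57 in DKO and in neither Cpt2 KO liver, and Cela1, of pancreas, in all 8 libraries at 8.62 to 24.6.

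Several things moved with the genotypes and touch every result below. Ppara-intact libraries carry numbers from 9548 to 9589 in their peak names and Ppara-null libraries from 6833 to 6848, so the state of Ppara and the series of numbers cannot be told apart. The smallest peak width, which follows the fragment length used by the peak caller, was 217 to 223 bases in the 4 Cpt2-null H3K27ac libraries and 198 to 210 in the 4 Cpt2-intact ones. Summed H3K27ac folds of 5 Kupffer cell and leukocyte markers (3 of 5 called in all 8 libraries) were 26.9 to 29.7 in WT livers, 51.6 to 59.8 in Cpt2 KO livers, 37.5 to 39.2 in Ppara KO livers and 61.9 to 68.3 in DKO livers. Those of 4 endothelial markers (4 of 4) were 54.8 to 63.2, 84.1 to 91.4, 61.1 to 72.4 and 93.4 to 101.3 in the same order. Summed folds of 4 stellate cell markers (1 of 4 in all 8, Col1a1 in none) were 7.24 to 10.1, 23.4 to 30.6, 6.57 to 8.14 and 18.3 to 23.0. All 3 sums were higher in the 4 Cpt2-null livers than in the 4 Cpt2-intact livers, and the part of cell composition in the results at the 10 genes was not tested. These sums count a marker with no call as 0, as for Ptprc in both WT livers, and use folds that were not centred. Median folds over all H3K27ac peaks were also higher in the Cpt2-null libraries, at 7.422 to 8.205 against 6.694 to 7.167 in the Cpt2-intact ones. In bulk liver, fewer cells with a mark and less of it in each cell cannot be told apart. Summed folds of the hepatocyte markers were 92.0 to 99.1, 101 to 105.5, 88.8 to 112.6 and 112.3 to 120.2.

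Each of the 10 genes had its start, or for Insr the upper end of its gene body, under an H3K27ac interval called in all 8 libraries. Among 17492 protein-coding genes with a RefSeq promoter, 44.19% had their start in an H3K27ac interval, against 9 of 9 of the genes here (Insr has no entry). No start of the 9 lay in an H3K4me1 interval, where the share over all genes was 9.833%, and 8 of 9 lay in an H3K9ac interval (45.92% over all genes). The exception in H3K9ac was Pck1, where intervals ended at 173152666 and resumed at 173153134 around the annotated start at 173153073. By mean fold over 8 libraries, the order of the start intervals in H3K27ac was Foxo1 (34.8 ± 8.98, SD), Pck1 (30.7 ± 6.55), Irs2 (27.3 ± 7.38), Fbp1 (26.6 ± 4.17), Insr (25.4 ± 5.01), Igf1 (23.8 ± 5.69), Irs1 (19.4 ± 4.57), Igfbp1 (18.5 ± 5.52), Slc37a4 (15.0 ± 1.83) and G6pc (9.82 ± 2.66). These intervals differ in length, from 2.02 kb at G6pc to 26.8 kb at Pck1. Neighbours in this order lay closer than the larger of their SDs except at the last step, from Slc37a4 to G6pc. G6pc and Slc37a4 were also the genes whose start interval was not their highest.

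**Figure D1:**
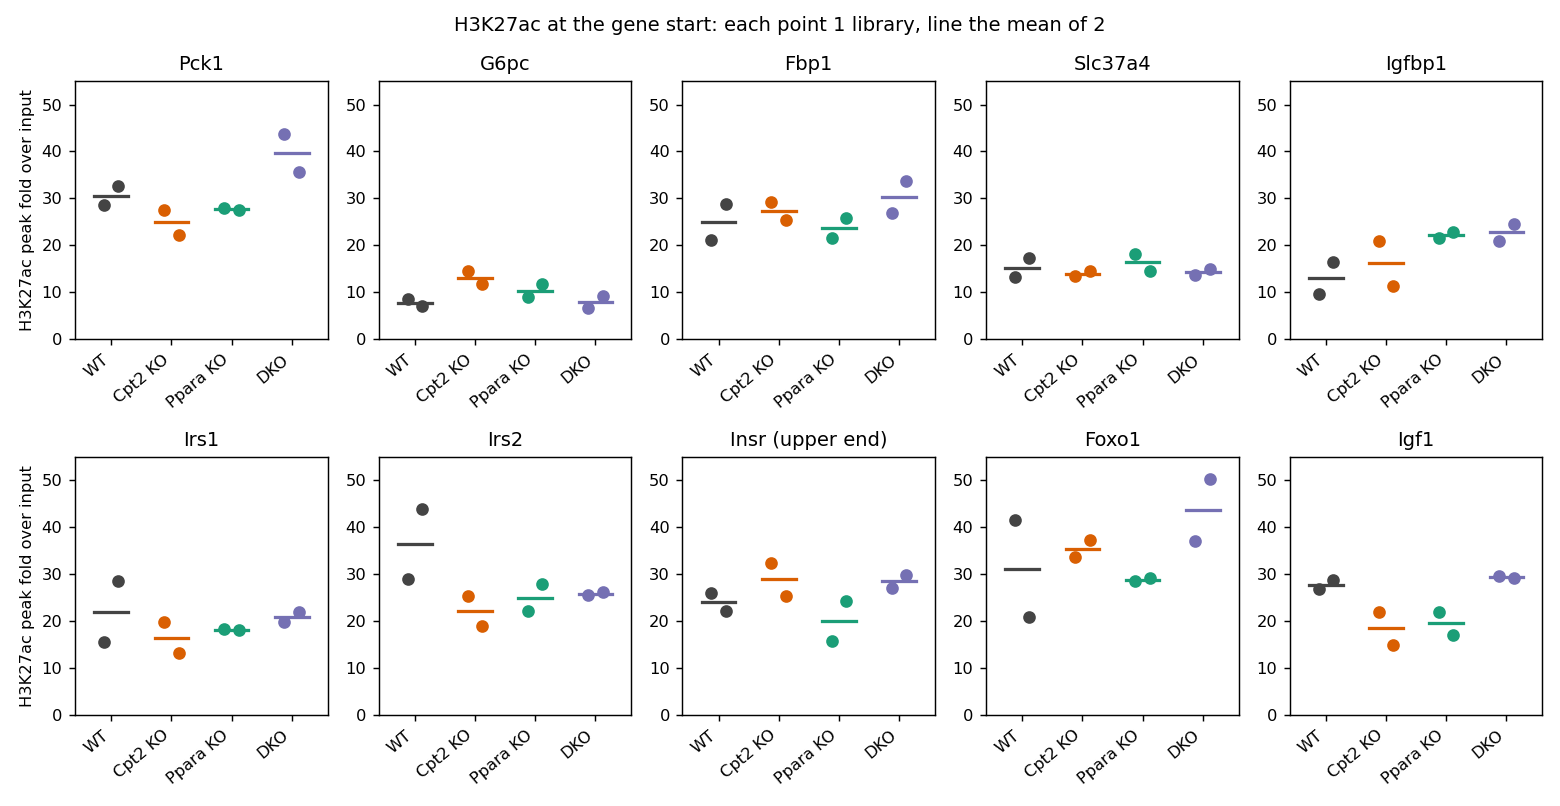
H3K27ac peak fold over input (vertical axis, linear from 0) at the start interval of each of the 10 genes, with 1 point for each library and a line at the mean of the 2 livers of a genotype; for Insr the interval lies at the upper end of the gene body. Irs2 is highest in both WT livers (28.9 and 43.8), and Igfbp1 is higher in the 4 livers without Ppara than in both WT livers. Pck1 is highest in both DKO livers, and at Igf1 the livers of both single knockouts lie below those of WT and DKO. At the other genes some genotypes overlap and others do not.

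Most of the H3K27ac intervals past the test described below lay at or beside Pck1, G6pc, Igfbp1 and Irs2. The 250 bases before the annotated start of these 4 genes are therefore shown. They are RefSeq sequences of GRCm38.p6, given 5′ to 3′ on the strand of the gene. Capitals mark every match, on either strand, to 5 short sequences: GTAAACA and CAAAACA (cores bound by forkhead factors and found in insulin response sequences), ACGTCA (the core of the cyclic AMP response element), AGGTCA (the half-site of nuclear receptors) and TATAAA (the TATA box). A match describes the letters and is not a measured site. The windows are chr2:173152823-173153072 (plus strand) for Pck1, chr11:101367466-101367715 (plus) for G6pc, chr11:7197537-7197786 (plus) for Igfbp1 and chr8:11008930-11009179 (minus) for Irs2.
Pck1: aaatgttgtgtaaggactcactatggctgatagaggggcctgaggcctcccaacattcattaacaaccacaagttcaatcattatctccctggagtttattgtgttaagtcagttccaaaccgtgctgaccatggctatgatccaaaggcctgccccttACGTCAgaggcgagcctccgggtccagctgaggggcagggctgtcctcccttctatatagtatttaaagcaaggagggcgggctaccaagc
G6pc: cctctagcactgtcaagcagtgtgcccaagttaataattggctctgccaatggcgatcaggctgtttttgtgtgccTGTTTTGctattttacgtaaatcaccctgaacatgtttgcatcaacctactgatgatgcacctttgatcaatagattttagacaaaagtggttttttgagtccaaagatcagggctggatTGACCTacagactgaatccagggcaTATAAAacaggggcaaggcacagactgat
Igfbp1: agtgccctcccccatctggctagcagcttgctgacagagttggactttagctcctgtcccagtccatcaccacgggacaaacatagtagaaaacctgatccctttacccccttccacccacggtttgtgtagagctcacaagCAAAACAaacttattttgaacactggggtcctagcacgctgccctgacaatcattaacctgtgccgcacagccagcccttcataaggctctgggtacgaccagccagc
Irs2: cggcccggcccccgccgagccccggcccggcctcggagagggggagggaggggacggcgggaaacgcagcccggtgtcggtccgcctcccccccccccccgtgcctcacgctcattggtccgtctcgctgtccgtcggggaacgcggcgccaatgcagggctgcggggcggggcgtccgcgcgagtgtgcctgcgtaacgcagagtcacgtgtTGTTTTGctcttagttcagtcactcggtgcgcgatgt
CAAAACA, read on either strand, was found in 4 of the 9 promoters (G6pc at −174 to −168, Igfbp1 at −108 to −102, Irs2 at −37 to −31, and Irs1 at −111 to −105 and at −32 to −26), and in 4.79% of 17492 promoters of this length. ACGTCA was found in 2 of 9, Pck1 (−91 to −86) and Slc37a4 (−61 to −56), and in 7.56% of all. AGGTCA was found in G6pc (−54 to −49), Slc37a4 (−127 to −122) and Igf1 (−161 to −156), and in 12.6% of all. TATAAA was found in G6pc alone of the 9 (−29 to −24) and in 12.4% of all, and GTAAACA in none of the 9 and in 2.58% of all. None of these matches overlapped another in the 9 promoters.

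Pck1 encodes the cytosolic phosphoenolpyruvate carboxykinase, which commits oxaloacetate to glucose production. Its gene body, chr2:173153073-173159274, lay under a single H3K27ac interval 26.8 kb long (chr2:173134300-173161054). That interval had folds of 28.6 and 32.6 in WT livers, 27.6 and 22.2 in Cpt2 KO livers, 28 and 27.6 in Ppara KO livers, and 43.8 and 35.5 in DKO livers. Both DKO livers were the highest of the 8, and no contrast of the centred values passed the test (limma, adjusted p from 0.219 for the interaction to 0.81 for DKO against WT). Peaks covered between 18 and 20.4 kb of the 26.2 kb around the gene in every library.

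Beyond the 3′ end of Pck1, 9.03 kb from the start, a second H3K27ac interval (chr2:173161165-173163034) was lower without Cpt2. Its folds were 10.5 and 13.5 in WT livers, 7.19 and 8.85 in Cpt2 KO livers, 10.8 and 10.9 in Ppara KO livers, and 7.25 and 9.68 in DKO livers. All 4 Cpt2-null livers lay below all 4 Cpt2-intact livers. With the median log2 fold of every library set to 0, Cpt2-null minus Cpt2-intact livers was −0.74 on the log2 scale (SE 0.18, limma adjusted p = 0.0213 over 18281 intervals), and DKO differed from WT by −0.80 (SE 0.26, adjusted p = 0.0425). The Cpt2 call was lost without centring, with peak width as a covariate, and without WT replicate 2, Cpt2 KO replicate 1, Ppara KO replicate 1, Ppara KO replicate 2 or DKO replicate 1 (adjusted p from 0.0140 to 0.811 over the alternatives). The DKO call was lost without centring, with quantile normalization, with the width covariate and without any one of the 8 libraries (0.0299 to 0.789). Of 7 H3K4me1 intervals at Pck1, 4 were called in all 8 libraries, the highest upstream at chr2:173150589-173152679 with folds of 11.8, 11.1, 13.7, 11.4, 11.1, 13.6, 13.2 and 13.4 in the order WT, Cpt2 KO, Ppara KO and DKO. In neither mark did an interval of Pck1 have calls in both livers of a genotype and none in another genotype.

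G6pc encodes the catalytic subunit of glucose-6-phosphatase, the last step of glucose release (gene body chr11:101367716-101377903). An H3K27ac interval 3.2 kb upstream (chr11:101362988-101366044) was lower in livers without Cpt2. It had folds of 10.3 and 16.0 in WT livers, 8.28 and 7.44 in Cpt2 KO livers, 8.01 and 12.8 in Ppara KO livers, and 8.78 and 5.28 in DKO livers. Both WT livers lay above all 4 Cpt2-null livers, and Ppara KO replicate 1 lay among the latter. The centred Cpt2 difference was −0.91 (SE 0.23, limma adjusted p = 0.0240) and DKO against WT was −1.21 (SE 0.33, adjusted p = 0.0205).

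These were the calls among the 10 genes that held without centring in both contrasts (Cpt2 −0.64, adjusted p = 0.0488; DKO −0.92, adjusted p = 0.0461). With peak width as a covariate the Cpt2 difference was −0.13 (SE 0.66) and the call was lost (adjusted p from 0.0164 to 0.974 over the alternatives). It was also lost without WT replicate 2, Cpt2 KO replicate 1, Cpt2 KO replicate 2, Ppara KO replicate 2 or DKO replicate 2. The DKO call was lost with the width covariate and without WT replicate 2 or DKO replicate 2 (0.0135 to 0.928). H3K4me1 over nearly the same bases (chr11:101363003-101366046) had folds of 8.54 and 8.25 in WT livers, 7.24 and 6.43 in Cpt2 KO livers, 10.2 and 10.9 in Ppara KO livers, and 8.65 and 6.74 in DKO livers, with no contrast past the test.

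Around G6pc the H3K27ac intervals did not move together. Further upstream, an interval (chr11:101359459-101362488, 6.74 kb before the start), the gene's highest by mean fold, had folds of 8.0 and 8.56 in WT livers, 16.7 and 9.29 in Cpt2 KO livers, 12.2 and 14.4 in Ppara KO livers, and 12.7 and 18.9 in DKO livers. Both WT livers were the lowest of the 8, and the difference for Ppara did not pass the test (0.47, adjusted p = 0.161). At the start itself (chr11:101367629-101369644) folds were 8.62 and 7.0 in WT livers, 14.6 and 11.7 in Cpt2 KO livers, 8.97 and 11.7 in Ppara KO livers, and 6.75 and 9.22 in DKO livers. Folds were thus higher in Cpt2 KO than in WT and lower on average in DKO than in Ppara KO, and the interaction, the Cpt2 difference without Ppara minus that with it, was −1.21 (unadjusted p = 0.00643, limma adjusted p = 0.176). Peaks covered 14.0 and 14.7 kb of the 30.2 kb around G6pc in WT, 9.73 and 7.97 kb in Cpt2 KO, 9.30 and 12 kb in Ppara KO, and 7.14 and 7.04 kb in DKO. The DKO mean was 49.4% of that in WT, against 91.6% over the whole genome.

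Calls also differed between genotypes at 3 short intervals upstream of G6pc, between 0.333 and 1.39 kb long. At chr11:101358019-101359403, 9.01 kb before the start of G6pc, folds were 8.58 and 8.62 in WT livers and 4.90 and 4.51 in Ppara KO livers, with no call in the 4 Cpt2-null livers. At chr11:101357530-101357940 the WT livers had 6.11 and 4.0 and no other library a call. At chr11:101362589-101362921 WT had 6.27 and 6.34, Cpt2 KO replicate 1 had 8.88, Ppara KO replicate 2 had 8.40, and DKO had no call. In H3K4me1, chr11:101357460-101360732 was called in WT (8.50 and 7.61), Cpt2 KO (4.78 and 7.17) and Ppara KO replicate 1 (6.94) but not in DKO, and chr11:101375665-101377185 in WT livers alone (4.69 and 5.99). The reverse was seen at chr11:101362062-101362451, 5.46 kb before the start, where H3K4me1 was called in DKO (4.89 and 5.33), Cpt2 KO replicate 1 (5.06) and Ppara KO replicate 2 (5.50) and not in WT. In the H3K9ac libraries 6 of 9 intervals at G6pc were called in WT alone, 3 in both and none in Cpt2 KO alone, and calls covered 8.86 kb in WT and 4.09 kb in Cpt2 KO.

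Fbp1 encodes the liver's fructose bisphosphatase, the enzyme opposing phosphofructokinase (gene body chr13:62864753-62888298, minus strand). Its start interval (chr13:62883539-62891328) had H3K27ac folds of 21.0 and 28.9 in WT livers, 29.3 and 25.5 in Cpt2 KO livers, 21.6 and 25.9 in Ppara KO livers, and 26.8 and 33.8 in DKO livers. Both DKO livers lay above both Ppara KO livers, and all other pairs of genotypes overlapped. Inside the gene, 12.5 kb from the start (chr13:62874751-62876899), folds were 6.80 and 6.29 in WT livers, 6.19 and 5.69 in Cpt2 KO livers, 4.90 and 6.47 in Ppara KO livers, and 4.37 and 4.57 in DKO livers. The DKO livers were the lowest of the 8. DKO differed from WT by −0.85 (SE 0.26, limma adjusted p = 0.0363), and the call was lost without centring, with quantile normalization, with the width covariate, with uncalled libraries filled in, and without any one of the WT, Cpt2 KO or DKO libraries (adjusted p up to 0.567 over the alternatives). With the width covariate the difference was −1.28, with an SE of 0.65.

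Downstream of Fbp1, on the side of its muscle paralog Fbp2, 1 interval followed Ppara in its calls. At chr13:62857991-62859311, 29.6 kb from the Fbp1 start, H3K27ac folds were 4.33 and 6.64 in WT livers and 10.3 and 11.2 in Cpt2 KO livers, with no call in the 4 Ppara-null livers. H3K4me1 at the same place (chr13:62857625-62859303) was called in WT replicate 1 (4.80) and in Cpt2 KO (8.29 and 8.0) only, and H3K9ac there in the Cpt2 KO library only. The middle of that H3K9ac interval (chr13:62858301-62858512) lay 6346 bases beyond the Fbp1 body and within 10 kb of Fbp2. Whether the marks at this place belong to Fbp1 or to Fbp2 was not tested. The next H3K27ac interval (chr13:62859520-62860005) was called in Cpt2 KO alone, at 4.20 and 6.14. At chr13:62872430-62873018, inside the gene, H3K4me1 was called in WT (4.28 and 3.77) and Ppara KO replicate 2 (4.50). The highest H3K4me1 interval (chr13:62877185-62881956) ran from 7.75 to 11 with overlapping genotypes.

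Slc37a4 encodes the transporter that brings glucose 6-phosphate into the endoplasmic reticulum (gene body chr9:44396946-44402966). Its start interval (chr9:44396103-44403021) had folds of 13.2 and 17.3 in WT livers, 13.5 and 14.5 in Cpt2 KO livers, 18.2 and 14.6 in Ppara KO livers, and 13.6 and 15.0 in DKO livers, the narrowest spread of the 10 genes. The interval with the highest mean fold (chr9:44406579-44408886, 9.38 kb downstream of the start) had 9.00 and 22.9 in WT livers, 15.2 and 16.5 in Cpt2 KO livers, 17.7 and 19.8 in Ppara KO livers, and 15.9 and 28 in DKO livers. Between them, chr9:44404478-44406388, which also lies near Trappc4, Rps25 and Ccdc84, was called in 6 libraries, at 6.77 and 7.90 in WT livers, 5.83 and 5.28 in Cpt2 KO livers and 7.42 and 6.06 in Ppara KO livers, and in neither DKO liver. Its H3K4me1 interval called in all 8 libraries (chr9:44399041-44406539) ranged from 7.91 to 10.7, and chr9:44406641-44406980 was called at 5.53 and 5.64 in Ppara KO livers and in neither Cpt2 KO liver.

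Igfbp1 encodes an insulin-repressed binding protein that the fasted liver secretes and that limits free insulin-like growth factor (gene body chr11:7197787-7202546). A single H3K27ac interval 12.2 kb long (chr11:7189701-7201924) spans the start and the upstream region. Folds were 9.62 and 16.4 in WT livers, 21.0 and 11.3 in Cpt2 KO livers, 21.6 and 22.9 in Ppara KO livers, and 21.0 and 24.5 in DKO livers. All 4 Ppara-null livers were at or above the highest Ppara-intact liver, Cpt2 KO replicate 1, whose value lay within 0.1 of the lowest of them. Ppara-null livers were higher by 0.66 on the log2 scale (SE 0.19, limma adjusted p = 0.0469).

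The rise at Igfbp1 was the 1 member interval of 36 called for Ppara (2.78%, against 7.34% of the 18281 intervals tested, 3.19% higher and 4.15% lower). The call was lost without centring (adjusted p = 0.0578), with the width covariate (0.0656), with the replicate number as a block (0.0526), with uncalled libraries filled in, and without WT replicate 1, Cpt2 KO replicate 2, or any one of the 4 Ppara-null libraries, within a range of 0.0226 to 0.201. Peaks covered 7.76 and 9.81 kb around the gene in WT, 12.4 and 7.64 kb in Cpt2 KO, 11.2 and 11.2 kb in Ppara KO, and 11.8 and 12.8 kb in DKO, so that the DKO mean was 140% of WT where the genome as a whole was at 91.6%. Toward Igfbp3, chr11:7203173-7203563 was called in DKO alone, at 4.0 and 5.0. The highest H3K4me1 interval (chr11:7189658-7190652) had folds of 9.17 and 12.3 in WT livers, 16.1 and 7.62 in Cpt2 KO livers, 10.6 and 15.9 in Ppara KO livers, and 12.4 and 12.9 in DKO livers, and chr11:7188826-7189509 was called in WT (6.21 and 8.55), Cpt2 KO replicate 2 (7.58) and Ppara KO replicate 1 (5.60) and in neither DKO liver. H3K9ac calls were shared by both libraries at 6 of 6 intervals.

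Igf1 encodes the growth factor that the liver secretes under growth hormone (gene body chr10:87858265-87937047). At its start (chr10:87857238-87865549) H3K27ac folds were 26.8 and 28.7 in WT livers, 22.0 and 15.0 in Cpt2 KO livers, 22.0 and 17 in Ppara KO livers, and 29.7 and 29.2 in DKO livers. Each single knockout lay below both WT livers while DKO lay above them. The interaction at this interval was 1.13 (SE 0.31, unadjusted p = 0.00249), and it did not pass the test over all intervals (limma adjusted p = 0.138). Inside the gene, chr10:87890674-87899343 had 23.2 and 11.4 in WT livers, 18.6 and 13.6 in Cpt2 KO livers, 24.1 and 23.4 in Ppara KO livers, and 27.3 and 29.7 in DKO livers, a Ppara difference of 0.66 (adjusted p = 0.0789) with the 4 Ppara-null livers above the other 4. Of the 7 intervals of Igf1 called in all 8 libraries, 6 had a positive Ppara difference and none passed.

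Calls at Igf1 separated genotypes at 7 H3K27ac intervals. Upstream, at chr10:87855489-87857118 (4.81 kb before the start), only the Ppara-null livers had a call, at 6.12 and 11.2 in Ppara KO livers and 9.33 and 8.70 in DKO livers. H3K4me1 over the same place (chr10:87855085-87857090) was called in all 8 libraries, at 5.38 and 7.0 in WT livers, 3.89 and 5.78 in Cpt2 KO livers, 7.49 and 8.94 in Ppara KO livers, and 9.45 and 9.04 in DKO livers. All 4 Ppara-null livers were the higher ones, and the difference of 0.69 did not pass the test (limma adjusted p = 0.17).

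The other 6 intervals lay between 56.2 and 67.0 kb into Igf1 and were called in neither Cpt2 KO liver. At chr10:87927669-87928601 folds were 5.59 and 6.87 in WT livers, 8.88 and 11.2 in Ppara KO livers and 7.46 in DKO replicate 1. At chr10:87916719-87917864 they were 8.59 and 5.86 in WT livers, 7.75 and 9.50 in Ppara KO livers and 4.14 in DKO replicate 1. H3K4me1 in this stretch was called at chr10:87918976-87919624 in WT livers (7.45 and 6.99), Cpt2 KO replicate 2 (6.35) and Ppara KO replicate 1 (4.33), and at chr10:87921807-87923193 in WT livers (5.80 and 5.28), Ppara KO (6.95 and 5.04) and DKO replicate 1 (5.65). Nearer the start, chr10:87868328-87870061 was called in WT (9.19 and 4.87) and Ppara KO replicate 1 (5.29). The highest H3K4me1 interval of the gene (chr10:87914621-87916473) had 8.29 and 8.57 in WT livers, 14.2 and 7.0 in Cpt2 KO livers, 10.8 and 13.8 in Ppara KO livers, and 12 and 15.8 in DKO livers.

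Insr encodes the insulin receptor (gene body chr8:3150922-3279649). The interval at its upper end (chr8:3275821-3280456) had H3K27ac folds of 25.9 and 22.2 in WT livers, 32.4 and 25.4 in Cpt2 KO livers, 15.8 and 24.3 in Ppara KO livers, and 27 and 29.9 in DKO livers, with no contrast past the test. Away from this end less of the gene was under peaks in the knockouts. In the 149 kb around it peaks covered 23.5 and 19.3 kb in WT, 16.2 and 13.8 kb in Cpt2 KO, 13.1 and 15.2 kb in Ppara KO, and 8.0 and 7.55 kb in DKO. Both DKO livers were the lowest, both WT livers the highest, and the DKO mean was 36.4% of WT. The corresponding H3K4me1 mean was 53.4% of WT, where the whole genome stood at 80.1%. H3K4me1 in the single knockouts was split, at 64.5% and 93.8% in Cpt2 KO livers and 89.9% and 59.7% in Ppara KO livers. The higher library of each had the smaller peak width (196 and 200 bases, against 211 and 216), and both DKO libraries had larger widths (210 and 221). The part of width was not tested.

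Of 42 H3K27ac intervals at Insr, 8 were called in all 8 libraries. One of them, 59.3 kb below the upper end (chr8:3219834-3220857), was lower in DKO: 8.37 and 11.1 in WT livers, 7.90 and 6.48 in Cpt2 KO livers, 6.30 and 7.75 in Ppara KO livers, and 5.09 and 7.36 in DKO livers. Both WT livers lay above the 6 others. DKO differed from WT by −0.95 (SE 0.26, limma adjusted p = 0.0226), and the call was lost without centring, with the width covariate, and without WT replicate 2, DKO replicate 1 or DKO replicate 2 (adjusted p up to 0.621 over the alternatives).

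Calls separated genotypes at 11 intervals of Insr. The one with the highest folds, 70.7 kb below the upper end (chr8:3208683-3209238), was called in every liver but WT, at 17.8 and 9.26 in Cpt2 KO livers, 5.73 and 6.39 in Ppara KO livers, and 8.64 and 10.1 in DKO livers. In the opposite sense, chr8:3250156-3252394 had 8.59 and 8.60 in WT livers, 6.68 and 6.80 in Cpt2 KO livers and 5.28 and 6.70 in Ppara KO livers with no call in DKO, and chr8:3233553-3234583 had 6.85 and 6.40 in WT livers and 4.83 in Ppara KO replicate 2. In H3K4me1, chr8:3184831-3185720 was called in the 4 Ppara-intact livers only (5.20 and 10.0 in WT livers, 8.37 and 6.62 in Cpt2 KO livers), and chr8:3267809-3268351 in WT livers (6.82 and 9.01) and Cpt2 KO replicate 2 (5.24). Beyond the upper end, chr8:3288402-3289096 was called in DKO (8.13 and 9.75), Cpt2 KO replicate 1 (7.0) and Ppara KO replicate 2 (7.20). H3K4me1 at its highest interval (chr8:3221009-3222526) had 10.9 and 12.4 in WT livers, 15.8 and 10.8 in Cpt2 KO livers, 11.6 and 12.6 in Ppara KO livers, and 13.7 and 11.7 in DKO livers, with all genotypes overlapping. H3K9ac calls at Insr were in WT alone at 9 of 14 intervals, in both libraries at 3 and in Cpt2 KO alone at 2.

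Irs2 encodes the docking protein that carries much of the insulin signal in the fasted liver (gene body chr8:10984681-11008929, minus strand). The interval over its start (chr8:11003463-11011702) was highest in WT: 28.9 and 43.8, against 25.3 and 18.9 in Cpt2 KO livers, 22.2 and 27.8 in Ppara KO livers, and 25.5 and 26.1 in DKO livers. Both WT livers lay above the 6 others, which overlapped. Before centring, the mean fold of DKO (25.8) was not below that of Ppara KO (25). Median folds over all peaks were higher in the DKO than in the Ppara KO libraries, so these means are not on the scale of the test. After centring, Cpt2-null livers differed by −0.59 (SE 0.13, limma adjusted p = 0.0166) and DKO differed from WT by −0.76 (SE 0.19, adjusted p = 0.0147). The Ppara difference of −0.17 did not pass (adjusted p = 0.482).

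The Cpt2 call at Irs2 was lost without centring, with the width covariate (−0.23, SE 0.39), and without Cpt2 KO replicate 2, Ppara KO replicate 2 or DKO replicate 2 (adjusted p from 0.0114 to 0.906). The DKO call was lost without centring, with the width covariate (−0.35, SE 0.46), and without WT replicate 2 or DKO replicate 2 (0.0106 to 0.852). H3K4me1 next to this interval (chr8:10999570-11007156) had 12.5 and 14.8 in WT livers, 7.0 and 8.0 in Cpt2 KO livers, 8.33 and 8.71 in Ppara KO livers, and 9.02 and 7.37 in DKO livers. Both WT livers were above the 6 others in this mark too, in libraries that carry the same numbers as those of H3K27ac. DKO against WT was −0.74 (limma adjusted p = 0.163). H3K4me1 calls confined to some genotypes were chr8:10994111-10995346 in WT livers (8.0 and 8.24), Cpt2 KO replicate 2 (4.75) and Ppara KO replicate 1 (5.80), chr8:11011810-11012424 in WT replicate 1 (4.67), Cpt2 KO (6.81 and 6.00) and Ppara KO (4.83 and 5.0), and chr8:10998337-10998795 in WT livers alone (5.44 and 5.0).

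Irs1, the related docking protein (gene body chr1:82233105-82291439, minus strand), had start folds (chr1:82282653-82292096) of 15.5 and 28.5 in WT livers, 19.8 and 13.2 in Cpt2 KO livers, 18.3 and 18 in Ppara KO livers, and 19.8 and 21.9 in DKO livers. The WT livers spanned the whole range of the other genotypes except for Cpt2 KO replicate 2. At chr1:82247644-82248927, 43.2 kb from the start, H3K27ac was called at 5.87 and 3.56 in WT livers, 6.22 and 7.62 in Cpt2 KO livers and 5.50 and 6.11 in Ppara KO livers and in neither DKO liver. The highest H3K4me1 interval (chr1:82286724-82290932) had 11.4 and 16.3 in WT livers, 5.86 and 16.6 in Cpt2 KO livers, 12.5 and 6.15 in Ppara KO livers, and 6.81 and 6.14 in DKO livers, so the livers of both single knockouts disagreed by more than 2-fold. H3K4me1 at chr1:82279583-82280338 was called in Ppara KO (7.8 and 5.74), DKO (6.50 and 6.83) and Cpt2 KO replicate 1 (7.28) and not in WT. At chr1:82258465-82259070 it was called in DKO (4.98 and 6.31), Cpt2 KO replicate 1 (6.80) and Ppara KO replicate 2 (5.40), and at chr1:82248469-82249079 in WT livers (6.55 and 5.33), Cpt2 KO replicate 2 (4.59) and Ppara KO replicate 1 (5.31).

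Foxo1, the forkhead factor that insulin signalling excludes from the nucleus (gene body chr3:52268337-52350109), had the highest start interval of the 10 (chr3:52267355-52271397). Folds were 41.5 and 20.8 in WT livers, 33.7 and 37.2 in Cpt2 KO livers, 28.5 and 29.1 in Ppara KO livers, and 37.1 and 50.3 in DKO livers. The 2 WT livers differed by more than the genotype means, and no contrast passed. An interval 24.9 kb into the gene (chr3:52292880-52293635) was called in WT alone, at 4.33 and 3.78. H3K4me1, which spread over 44 intervals of the gene, covered 34.8 and 35.2 kb in WT, 17.7 and 29.8 kb in Cpt2 KO, 33.9 and 15.6 kb in Ppara KO, and 12.7 and 16.6 kb in DKO, a DKO mean of 41.8% of WT. Its highest H3K4me1 interval (chr3:52291190-52295256) had 12.6 and 13.1 in WT livers, 10.9 and 14.3 in Cpt2 KO livers, 11.6 and 7.78 in Ppara KO livers, and 9.71 and 8.0 in DKO livers.

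At 4 of the 12 H3K4me1 intervals of Foxo1 whose calls separated genotypes, the calls were in the same livers: WT replicates 1 and 2, Cpt2 KO replicate 2 and Ppara KO replicate 1. Folds in that order were 5.33, 9.03, 4.43 and 5.43 at chr3:52324897-52325538, 7.11, 5.83, 5.74 and 6.67 at chr3:52287859-52288416, 4.58, 8.21, 5.43 and 8.33 at chr3:52314784-52315842, and 7.8, 4.83, 7.0 and 5.51 at chr3:52300504-52301330. Those 4 H3K4me1 libraries also had the smallest peak widths of the 8, 196 to 200 bases against 210 to 221 in the others. They held calls at 121 to 144 of the 197 intervals of the 10 genes, and the others at 83 to 99. The same 4 libraries alone held the H3K4me1 calls at chr11:7188826-7189509 (Igfbp1), chr1:82248469-82249079 (Irs1), chr8:10994111-10995346 (Irs2) and chr10:87918976-87919624 (Igf1). The other libraries alone held those at chr11:101362062-101362451 (G6pc), chr1:82258465-82259070 (Irs1) and chr8:3288402-3289096 (Insr). Calls at all these intervals split by peak width. They set WT apart from DKO, while the 2 livers of each single knockout fell on opposite sides. The part of width was not tested.

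**Figure D2:**
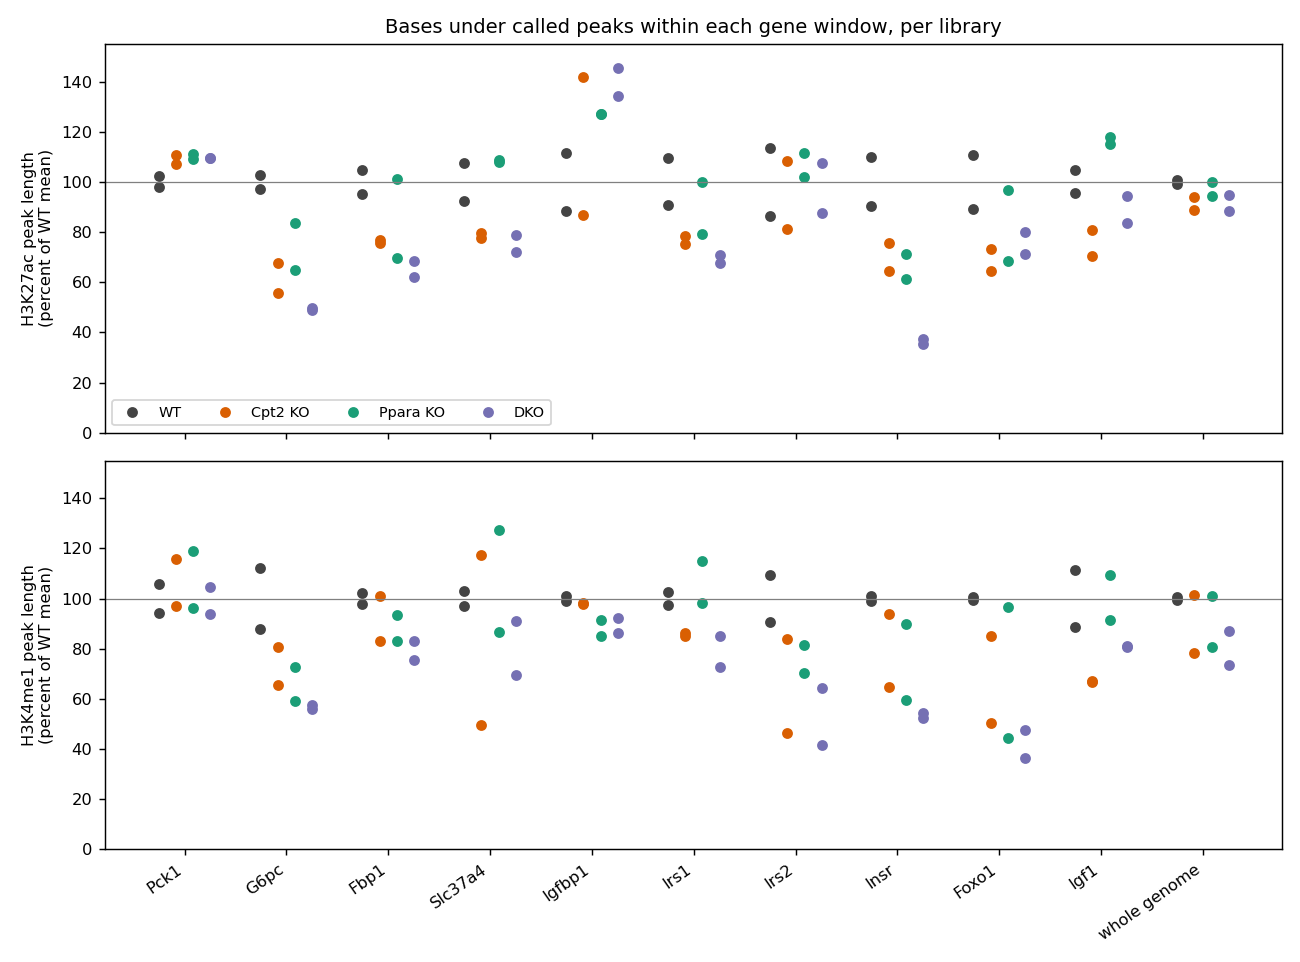
Length under called peaks in the window of each gene (gene body and 10 kb on either side), as a percent of the mean of the 2 WT livers, for H3K27ac (top) and H3K4me1 (bottom), with 1 point for each library and the whole genome at the right. In DKO the H3K27ac length at Insr (mean 36.4%) and G6pc (49.4%) lies far below that of the genome (91.6%), Igfbp1 lies above 100%, and Pck1 stays near WT.

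Read over all members, the Cpt2 and DKO contrasts leaned to lower H3K27ac. Of the 36 member intervals called in all 8 libraries, 3 were lower without Cpt2 (Pck1 +9.03 kb, G6pc −3.2 kb and the Irs2 start) and none higher. That is 8.33%, against 12.3% of all 18281 intervals called in either direction and 7.38% called lower. Centred differences were negative at 27 of the 36 with a median of −0.16, and over all intervals 51.4% were negative with a median of −0.01. In DKO against WT, 5 of 36 were lower (the same 3, Fbp1 +12.5 kb and Insr) and none higher, which is 13.9% against 20.2% of all intervals in either direction and 11.5% lower. There the median was −0.27, against −0.04 over all intervals, and 22 of 36 were negative, against 52.25% of all intervals. The shares called lower were therefore near the background in both contrasts.

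For Ppara the median of the 36 member intervals was −0.01, the same as over all intervals, with 18 positive and 18 negative. No member interval was called for the interaction (limma, adjusted p under 0.05), where 8 had an unadjusted p under 0.05 and 1 of the 18281 intervals was called (0.00547%). The contrasts share libraries, so the calls for Cpt2 and for DKO against WT at the same 3 intervals are not independent. Which intervals passed, and the split of higher and lower calls, depended on centring: without it the median of all intervals went from −0.01 to 0.25 for Cpt2 and from −0.04 to 0.26 for DKO against WT. On uncentred folds the calls were 1 higher (inside Insr) and 1 lower (G6pc −3.2 kb) for Cpt2, and 4 higher (inside Igf1, Igfbp1, upstream of G6pc and inside Insr) and 1 lower (G6pc −3.2 kb) for DKO against WT. With peak width as a covariate no member interval was called in any of these contrasts, and none of the 18281 was called for Cpt2.

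**Figure D3:**
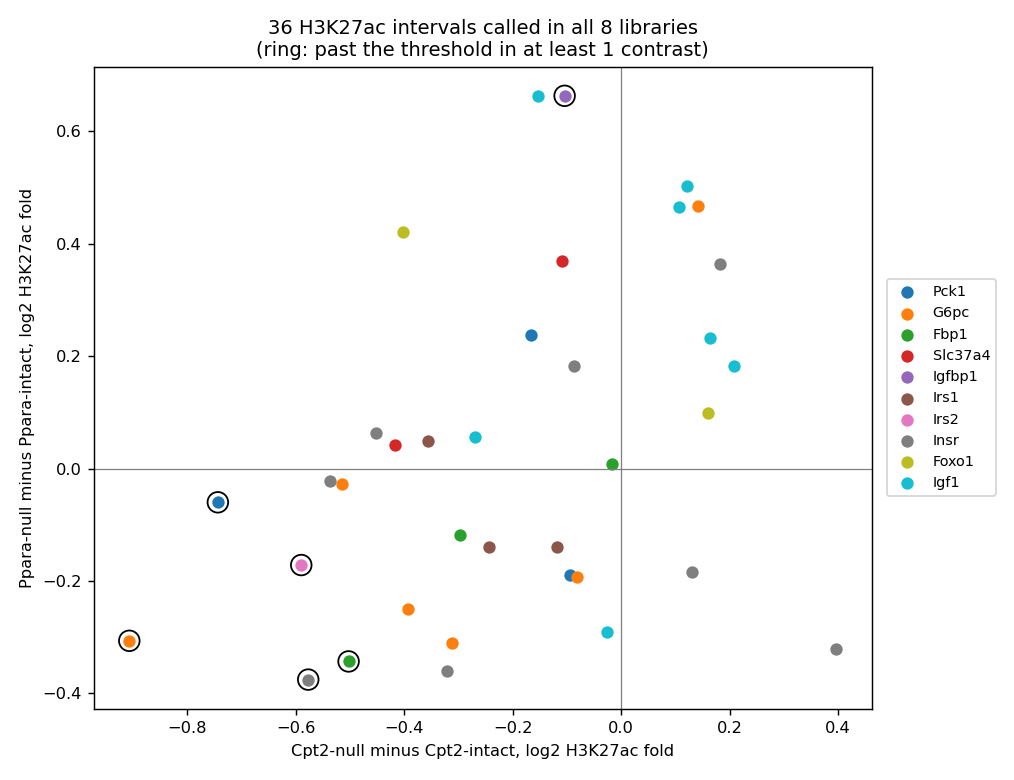
Centred log2 difference in H3K27ac fold for Cpt2 (Cpt2-null minus Cpt2-intact livers, horizontal axis) and for Ppara (Ppara-null minus Ppara-intact, vertical axis) at the 36 intervals called in all 8 libraries, coloured by gene, with a ring around the 6 intervals past the threshold in at least 1 contrast. Of the 36 points, 27 lie to the left of 0 for Cpt2, and 18 lie on each side of 0 for Ppara.

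**Figure D4:**
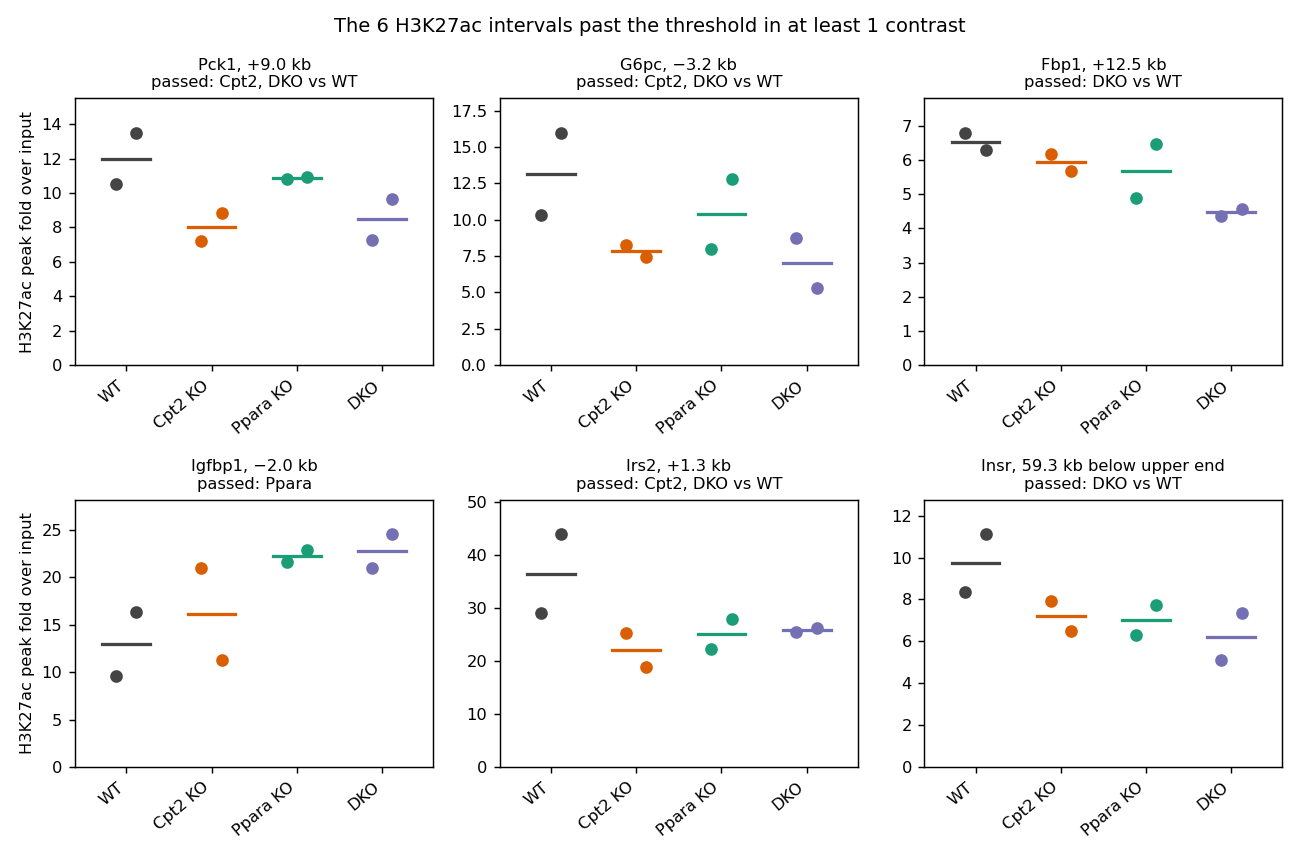
H3K27ac peak fold over input in every library at the 6 intervals past the threshold in at least 1 contrast (each panel has its own linear axis from 0; points are libraries and lines are means of 2). At Pck1 +9.0 kb the 4 livers without Cpt2 lie below the others, at Irs2 and Insr both WT livers lie above the 6 others, and at Igfbp1 the 4 livers without Ppara are high.

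In H3K4me1 none of the 63 member intervals called in all 8 libraries passed the limma test in any contrast (of 19526, 0.128% were called for Ppara, 0.0461% higher and 0.0819% lower, 0% for Cpt2, 0% for the interaction and 0.133% for DKO against WT, 0.0973% higher and 0.0358% lower). Unadjusted p-values under 0.05 were found at 9 for Ppara, 2 for Cpt2, 3 for the interaction and 9 for DKO against WT. The member with the lowest adjusted p was inside Insr (chr8:3237349-3244754), with 11.9 and 12 in WT livers, 6.11 and 8.17 in Cpt2 KO livers, 10.3 and 7.32 in Ppara KO livers, and 6.13 and 6.12 in DKO livers. Both WT livers were the highest and both DKO livers among the lowest, at −0.96 for DKO against WT (SE 0.28, adjusted p = 0.105). Leaving out Cpt2 KO replicate 1 gave 1022 calls for Ppara over all H3K4me1 intervals in place of 25, and 3 at the members in place of 0.

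Calls went the same way as the covered length. In H3K27ac, 16 of the 122 member intervals were called in both WT livers and in neither DKO liver (13.1%, against 8% of all intervals), and 3 the other way (2.46% against 12.6%). Between WT and Cpt2 KO the counts were 13 (10.7% against 6.64%) and 3 (2.46% against 9.72%), and between WT and Ppara KO 6 (4.92% against 5.41%) and 2 (1.64% against 5.01%). In H3K4me1, 38 of 197 were called in both WT livers and in neither DKO liver (19.3% against 10.6%), and 7 the other way (3.55% against 10.7%). At least 3 of 4 Cpt2-intact and no Cpt2-null liver had a call at 7 H3K27ac intervals (5.74% against 2.49%), and the reverse at none (4.5%). For Ppara the corresponding counts were 2 (1.64% against 1.73%) and 1 (0.820% against 1.63%).

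H3K4me1 calls leaned to WT against each knockout. Both WT livers and neither Cpt2 KO liver had a call at 18 intervals (9.14% against 3.64%), with 2 the other way (1.02% against 2.87%), and against Ppara KO the counts were 20 (10.2% against 4.89%) and 2 (1.02% against 3.5%). At least 3 Ppara-intact and no Ppara-null liver had a call at 10 intervals (5.08% against 2.84%), with none the other way (1.96%), and at least 3 Cpt2-intact and no Cpt2-null liver at 6 (3.05% against 1.3%), with none the other way (1.41%). All 8 libraries had a call at 63 of 197 H3K4me1 intervals (32.0% against 19%) and at 36 of 122 H3K27ac intervals (29.5% against 27.8%).

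Long genes held most of these intervals: of the 27 H3K27ac intervals with calls in both livers of a genotype and none in another genotype (22.1% against 29.6%), 11 belonged to Insr and 7 to Igf1. Of the 54 such H3K4me1 intervals (27.4% against 26.2%), 12 belonged to Insr, 12 to Foxo1, 9 to Irs1 and 8 to Igf1. Intervals of the same gene are not independent, and both WT H3K4me1 libraries were among those with the smaller peak widths (199 bases each). H3K27ac libraries held calls at 86 and 69 of the 122 intervals in WT, 60 and 51 in Cpt2 KO livers, 65 and 72 in Ppara KO livers, and 52 and 43 in DKO livers, so the 4 Cpt2-null libraries, those with the larger peak widths, had the fewest. In H3K9ac, 30 of 71 intervals were called in WT alone (42.3% against 20.8% of all), 4 in Cpt2 KO alone (5.63% against 23.9%) and 37 in both (52.1% against 55.2%). H3K9ac has 1 library a genotype and no test. The largest gap in covered length was at Fbp1 (14.2 kb in WT and 5.87 kb in Cpt2 KO), and Irs2 alone had more in Cpt2 KO (8.16 kb in WT and 8.79 kb in Cpt2 KO).

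**Figure D5:**
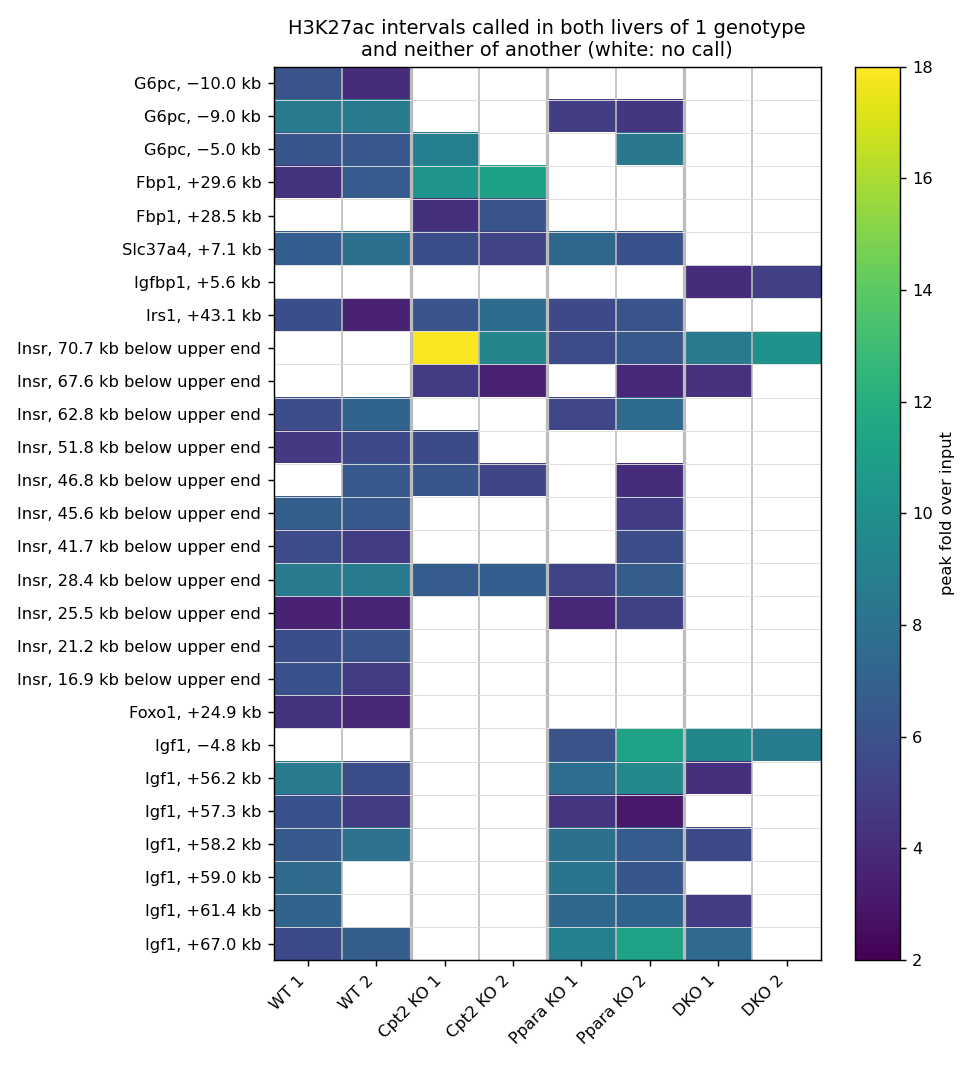
H3K27ac fold over input (colour) in the 8 libraries (columns) at the 27 intervals with calls in both livers of a genotype and none in another genotype (rows, by gene and distance from the start or, for Insr, below the upper end of the gene body); white is no call. WT columns are the fullest, the DKO columns are empty at 16 rows that are filled in both WT livers, and the 6 rows of Igf1 from +56.2 to +67.0 kb are white in both Cpt2 KO livers.

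Other genes of the same pathways were read from the same fits, by 2 lists of 30 genes each. Among 80 H3K27ac intervals at 27 further genes of gluconeogenesis and its regulators, 3 were higher and 2 lower without Ppara, 2 higher and 8 lower without Cpt2, and 4 higher and 15 lower in DKO than in WT. List medians were 0.03, −0.11 and −0.12, where those of all intervals were −0.01, −0.01 and −0.04. Over all 18281 intervals the shares called were 3.19% higher and 4.15% lower for Ppara, 4.9% and 7.38% for Cpt2, and 8.62% and 11.5% for DKO against WT. Among 81 intervals at 28 genes of insulin and growth factor signalling, 3 were higher and 3 lower without Ppara, 1 higher and 11 lower without Cpt2, and 2 higher and 16 lower in DKO, with medians of −0.05, −0.17 and −0.16. No interval of either list was called for the interaction, nor for any contrast in H3K4me1 (111 and 114 intervals). The genes named next were chosen after their values were seen.

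Higher without Ppara was Got1, an aspartate aminotransferase, with H3K27ac folds (chr19:43520423-43527423) of 13.4 and 20.2 in WT livers, 23.7 and 12.2 in Cpt2 KO livers, 31.2 and 35.5 in Ppara KO livers, and 36.1 and 32.6 in DKO livers. All 4 Ppara-null livers lay above the other 4, at 0.98 (SE 0.18, limma adjusted p = 0.00568, and under 0.05 in all 15 alternatives). Ppargc1a, the coactivator of gluconeogenic transcription, had 6.11 and 6.67 in WT livers, 12.4 and 4.18 in Cpt2 KO livers, 17.4 and 13.2 in Ppara KO livers, and 12.4 and 17.3 in DKO livers (chr5:51536488-51540047), with a Ppara difference of 1.10 (SE 0.27, limma adjusted p = 0.0256) that 6 of 15 alternatives ended. The glucagon receptor gene Gcgr went the other way at an interval whose middle lay 5977 bases outside its body (chr11:120519243-120527173). Folds went from 18.5 and 15.7 in WT livers and 16.0 and 12.1 in Cpt2 KO livers to 9.57 and 10.8 in Ppara KO livers and 10.3 and 7.33 in DKO livers. The Ppara difference there was −0.75 (SE 0.20, limma adjusted p = 0.0352), a call that 7 of 15 alternatives ended. An interval with its middle inside Gcgr (chr11:120527346-120533842) did not follow, at 0.10 for Ppara (limma adjusted p = 0.829). Nor did another interval inside Ppargc1a (chr5:51551243-51554389), at 0.07 (limma adjusted p = 0.850).

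One interval of Ghr, the gene of the receptor through which growth hormone drives hepatic Igf1, was lower for Ppara, for Cpt2 and in DKO against WT. At chr15:3581362-3582703 its H3K27ac folds were 22.4 and 24.6 in WT livers, 11.9 and 13.4 in Cpt2 KO livers, 10.6 and 14.6 in Ppara KO livers, and 6.80 and 6.00 in DKO livers. Single knockouts lay below WT and DKO below both, with DKO against WT at −2.17 (SE 0.25, limma adjusted p = 0.000807), Cpt2 at −1.20 (adjusted p = 0.00425) and Ppara at −0.98 (adjusted p = 0.00561), while the interaction did not pass (−0.15, adjusted p = 0.863). None of the other 4 Ghr intervals tested passed for Ppara (adjusted p from 0.114 to 0.378). Srebf1, the insulin-induced factor of lipid synthesis, had 22.2 and 18.5 in WT livers, 4.14 and 7.5 in Cpt2 KO livers, 5.83 and 7.5 in Ppara KO livers, and 6.80 and 6.00 in DKO livers (chr11:60205182-60211694), and Grb14, an inhibitor that binds the insulin receptor, had 24.2 and 31.0 in WT livers, 12.6 and 13.9 in Cpt2 KO livers, 15.0 and 18.8 in Ppara KO livers, and 12.4 and 15.3 in DKO livers (chr2:65021657-65022801). At these intervals both WT livers were above the 6 others, with Cpt2 differences of −1.22 (SE 0.23, limma adjusted p = 0.00881) and −0.93 (SE 0.15, adjusted p = 0.00493). The other interval tested did not follow in either gene: at Grb14 (chr2:64972509-64976338) both WT livers were the lowest, at 14.1 and 20.6 against 23.0 to 36, and at Srebf1 (chr11:60219675-60226231) WT had 19.7 and 32.4 against 13.2 to 31.8, with no contrast past the test. Foxa2, a forkhead factor of hepatocytes, had 27.6 and 33.4 in WT livers, 22.5 and 23.8 in Cpt2 KO livers, 24.9 and 28.6 in Ppara KO livers, and 17.4 and 20.7 in DKO livers (chr2:148042986-148048023), with a Cpt2 difference of −0.71 (SE 0.12, limma adjusted p = 0.00586). The width covariate ended the Cpt2 and DKO calls at Ghr, Srebf1, Grb14 and Foxa2 while it raised the SE (at Ghr from 0.25 to 0.62 for DKO against WT, with a difference of −2.12), omitting centring ended the Cpt2 call at Foxa2, and the Ppara call at Ghr held in all 15 alternatives.

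Genes whose H3K27ac varied most like that of a member were found by Pearson's r of centred log2 folds over the 8 libraries, leaving out genes within 100 kb. For the highest interval of Pck1 these were intervals at Ap5s1 (r = 0.94), Fnbp1l (0.94) and Ptp4a3 (0.93), and for that of G6pc at Grm8 (0.98), Wee1 (0.97) and Cabcoco1 (0.96). For Igfbp1 they were at Cald1 (0.98), Eif3h (0.96) and Unc93b1 (0.95), and for Irs2 at Colec12 (0.99), Sgsm2 (0.98) and Csnk1g3 (0.97). The points share libraries, and the best of 18281 intervals is high by selection.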

How the data were processed

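H3K27ac and H3K4me1 ChIP-seq of 16 libraries and H3K9ac of 2 libraries were used; the 2 pooled inputs were not analysed on their own. Per the submitters' processing notes, reads were aligned with BWA to mm10 and peaks called with MACS2 2.1.0, and peaks are listed per library. Per the file headers the deposited lists give peak positions in bases, made 1-based here. The fold, a ratio of ChIP over local background, was deposited with −log10 p and −log10 q by the authors. In H3K27ac, peak names of Ppara KO replicate 2 carry the build word mmi90; it was used as mm10, since 83.9% of its peaks overlapped peaks of Ppara KO replicate 1 (79.0% to 85.9% in the other H3K27ac libraries).

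Each interval took a library's highest overlapping fold (at least 1 base). A fold depends on local input and fragment length and is no read count, and depth in reads is unknown. Intervals called in all 8 libraries of a mark entered limma 3.58.1 (R 4.3.3; lmFit, eBayes with trend) as log2 of the deposited ratios, centred by library median, with 4 genotype means; this leaves out intervals lost in a genotype, which are described by calls. Benjamini-Hochberg adjustment ran over all intervals, with 0.05 as threshold. Ppara compares Ppara KO and DKO with WT and Cpt2 KO, and Cpt2 compares Cpt2 KO and DKO with WT and Ppara KO.

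The 7 alternatives were no centring, quantile normalization, peak width as covariate, a minimum −log10 q of 10, overlap of 50%, uncalled libraries filled in with their smallest fold, and the replicate number as a block, beside leaving out each of the 8 libraries. The fit was tested on simulated data. Named intervals are those at the start, with the highest mean fold, past the test, and up to 3 for each gene and mark with calls in both livers of a genotype and none in another, in order of the mean fold where called. The H3K4me1 intervals given for Insr and Igf1 beyond these were named after their values were seen. The members, lists and motifs were chosen with earlier results of these data known.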

Additional observations from a re-analysis of the deposited data

How the results depend on the processing

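Counts of member intervals past the limma threshold depended on the processing. In H3K27ac the count for Ppara was 1, and became 0 with peak width as a covariate and 12 with uncalled libraries filled in. For Cpt2 the count was 3, and became 0 and 21 under the same settings; for the interaction it was 0, and became 8 with uncalled libraries filled in. For DKO against WT it was 5, and became 3 with quantile normalization, 0 with the width covariate, 3 with a minimum −log10 q of 10 and 24 with uncalled libraries filled in. In H3K4me1 the counts of 0 became 15 (Ppara), 11 (Cpt2), 7 (interaction) and 17 (DKO against WT) with uncalled libraries filled in, a setting that gives 1 value to every missing call of a library. Leaving out 1 library at a time gave 0 to 2 for Ppara, 0 to 6 for Cpt2, 0 for the interaction and 0 to 6 for DKO against WT in H3K27ac, and 0 to 3, 0, 0 and 0 to 2 in H3K4me1. In H3K27ac the count of 0 came without Ppara KO replicate 2 for Cpt2 and without either WT replicate 2 or DKO replicate 2 for DKO against WT, and the highest counts without WT replicate 1. H3K4me1 intervals with calls in both livers of a genotype and none in another genotype fell from 54 to 33 with a minimum −log10 q of 10. The causes of these changes were not tested.

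With the replicate number as a block the counts were 1, 3, 0 and 5 in H3K27ac and 0 in every H3K4me1 contrast, as without it. The single Ppara call moved from Igfbp1 (adjusted p = 0.0526) to Igf1 (chr10:87890674-87899343, adjusted p = 0.0450), and no other member call changed. Deviations of same-numbered libraries correlated between −0.489 and 0.172. With 2 libraries a genotype this does not settle whether the numbers pair the samples, since peak width also differed between replicates. At the lowest value, for Cpt2 KO and Ppara KO in H3K4me1, widths of replicates 1 and 2 were 211 and 196 bases and 200 and 216 bases. Over single named intervals no called difference changed sign: 113 values lost a call, 14 gained one and 1901 kept their side of the threshold, and 12 could not be fitted because the interval was not called in all libraries. With 2 livers a genotype and read depth unknown, an interval that missed the threshold is not shown to be unchanged.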
